A study of Mus musculus with 9 samples.

Results

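The 8 genes described here (Trp73, Lhx1, Lhx5, Ebf2, Ebf3, Calb2, Ndnf and Cacna2d2) are markers of Cajal-Retzius cells and were matched by symbol to the Ensembl identifiers of a count table of 57010 genes. Reads were counted in the microdissected cortex of single mouse embryos at E12.5, in 3 control embryos labelled WT (Ctrl), 3 Cnot3 cKO embryos (cKO) and 3 Cnot3;Trp53 dcKO embryos (dcKO). In the cKO, floxed Cnot3, a core subunit of the CCR4-NOT deadenylase, is deleted by Emx1-Cre, which acts in radial glia of the dorsal telencephalon and in their progeny. In the dcKO the same Cre also deletes floxed Trp53, which encodes the tumour suppressor p53. Each library came from 1 embryo, and whole cortical tissue was sequenced rather than sorted cells. The design asks how these genes responded to loss of Cnot3 and whether the response changed when Trp53 was also removed.

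Cajal-Retzius cells are among the first neurons of the cortex. They are born at the edges of the pallium, in the cortical hem, the septum and the boundary with the subpallium, and spread below the pia, where they secrete reelin and guide the layering of later neurons. Most of those from the hem and septum express Trp73. In bulk tissue, fewer cells of a type and less RNA per cell cannot be told apart.

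Total reads ranged from 21193798 to 45073349 per embryo, and all 8 genes had more than 10 reads in every embryo, the condition for being among the 13680 genes tested. Cnot3 stood at 2756 to 3291 normalised reads in Ctrl and at 408.4 to 484.2 in cKO. In dcKO it stood at 205.7, 1353 and 534.4 in replicates 1 to 3. Trp53 stood at 423.1, 3098 and 578.5 in the same dcKO embryos, at 4612 to 4693 in cKO and at 6029 to 7123 in Ctrl. The dcKO replicate 2 library thus held the most of both targeted transcripts in its group, and the main dcKO results are also given without it. Normalised reads are TMM-scaled counts at the mean library size.

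Trp73 (GRCm38 chr4:154056253-154140208, minus strand), which encodes the p53 family member p73, has an upstream start and an internal start from which a shorter form lacking the transactivation domain is made. The count table sums over both starts. The 250 bases upstream of each are printed below because Trp73 was the only member whose dcKO embryos all lay below all cKO embryos. They are from RefSeq (GRCm38.p6), on the strand of the gene, with the E-box letters CANNTG in capitals.
Trp73 internal start, chr4:154097174-154097423: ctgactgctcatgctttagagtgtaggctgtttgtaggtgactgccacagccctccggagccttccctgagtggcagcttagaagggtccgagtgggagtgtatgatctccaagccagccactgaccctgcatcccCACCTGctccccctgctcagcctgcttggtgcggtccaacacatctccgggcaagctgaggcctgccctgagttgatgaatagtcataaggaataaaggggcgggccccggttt
Trp73 upstream start, chr4:154139876-154140125: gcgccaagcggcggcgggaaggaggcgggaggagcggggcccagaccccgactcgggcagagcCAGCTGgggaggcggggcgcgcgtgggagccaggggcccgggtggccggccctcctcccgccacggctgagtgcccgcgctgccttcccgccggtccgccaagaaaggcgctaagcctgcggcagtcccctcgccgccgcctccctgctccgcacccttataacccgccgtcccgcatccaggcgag
Upstream windows were matched for 4 of the 8 genes (Trp73, Lhx1, Ebf3 and Cacna2d2), 5 windows in all, and were searched on both strands. Each Trp73 window held 1 E-box, 114 bases before the internal start and 187 bases before the upstream start, and an E-box was present in 66.2% of 32817 windows of this length. The p53 half-site (7.12% of all windows), the EBF core TCCCNNGGGA (0.78%) and the homeodomain core TAATTA (4.85%) had no match in the 5 windows. The Lhx1, Ebf3 and Cacna2d2 windows held none of the 4 motifs.

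Levels were compared between genes as CPM per kb of exon, with exon lengths from GENCODE M21. In Ctrl the order was Ebf2 (mean 5.0), Calb2 (4.09), Trp73 (3.93), Cacna2d2 (2.57), Ebf3 (1.75), Lhx1 (1.21), Lhx5 (0.332) and Ndnf (0.175). The ranges of Ebf2 and Calb2, and of Calb2 and Trp73, overlapped between neighbours, whereas each later gene lay below the one before it in all 3 Ctrl embryos. These means stood between the 0.959th percentile (Ndnf) and the 44.4th percentile (Ebf2) of the 13561 tested genes with a length. In cKO the order began with Calb2 (6.83), Ebf2 (5.92), Cacna2d2 (5.53) and Trp73 (5.27), whose neighbouring ranges overlapped. In dcKO every neighbouring pair in the order overlapped.

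**Figure D1:**
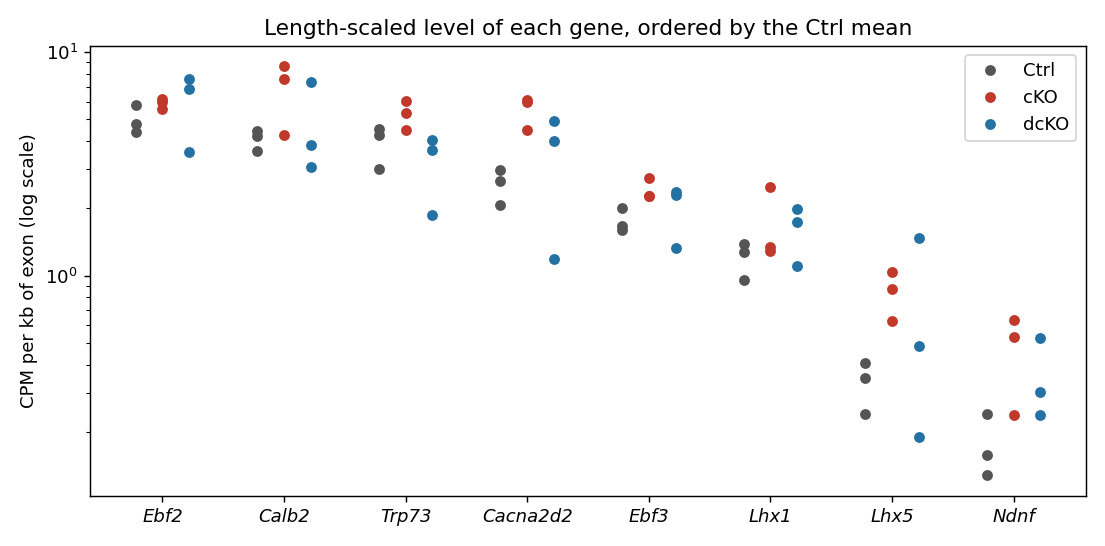
CPM per kb of exon (log scale) of each gene, ordered by the Ctrl mean, with 1 point per embryo and 3 embryos per genotype. Lhx5 and Ndnf had the lowest means in every genotype, with Ctrl means of 0.332 and 0.175.

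In cKO cortices the fitted log2 fold change against Ctrl was positive for all 8 genes, and none passed the test with edgeR. A gene was called where edgeR's quasi-likelihood test gave an adjusted p (Benjamini-Hochberg) under 0.05 together with a log2 fold change beyond 1 in size. That held for 0 of 8 members, beside 0.0146% of all tested genes. At an unadjusted p-value under 0.05 the members numbered 2 (Ndnf and Cacna2d2), beside 27.0% of all tested genes. Their median log2 fold change was 0.623, beside 0.00975 over all tested genes, and 3 of 8 exceeded 1, beside 7.07%. DESeq2 called 1 member higher (Ndnf), beside 4.95% of all genes. In 3 members (Lhx5, Ebf3 and Cacna2d2) every cKO embryo lay above every Ctrl embryo, a pattern seen in 29.2% of all tested genes. With upper-quartile factors, which shifted the median of all genes to 0.116, that count was 8, beside 35.5% of all genes. In 0 members every cKO embryo lay below, beside 28% of all genes. An exact two-sided permutation test of 3 against 3 embryos cannot give a p-value below 0.1.

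**Figure D2:**
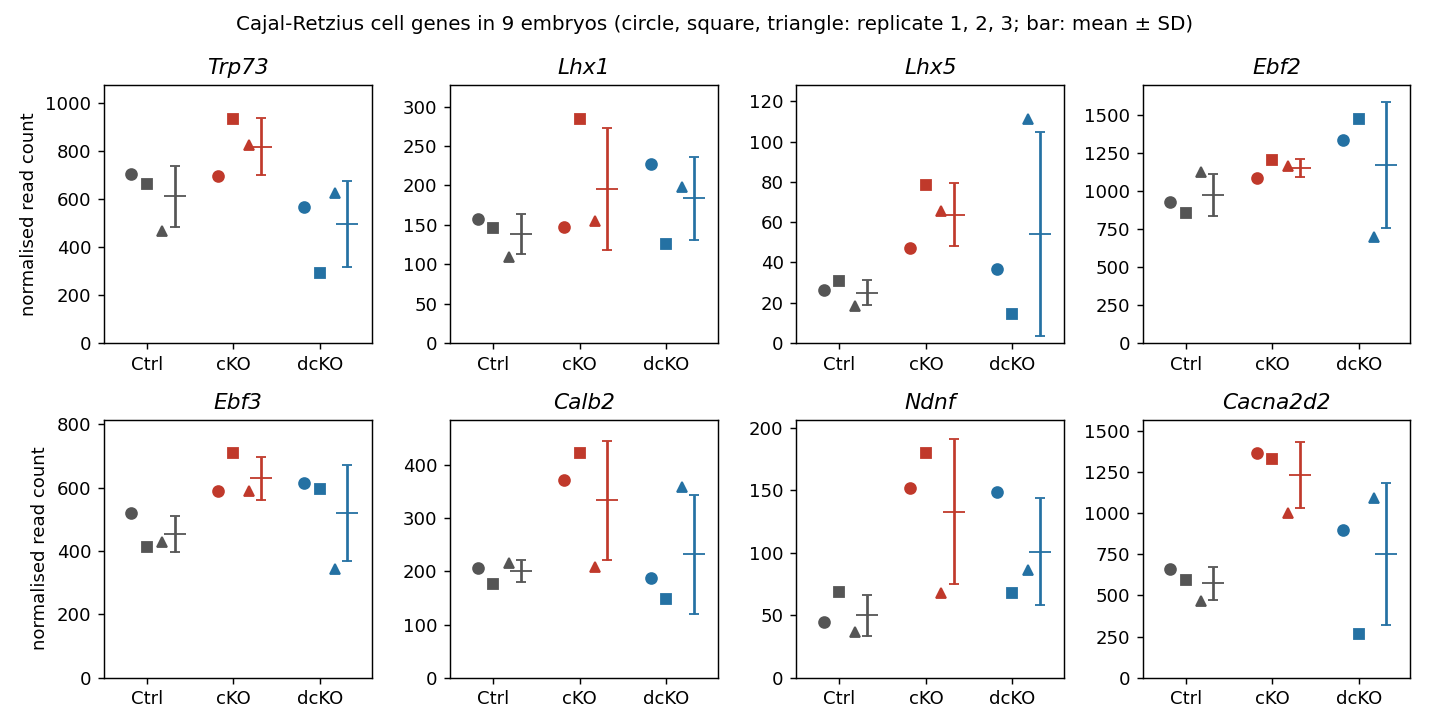
Normalised read count of each gene in each embryo, with replicates 1 to 3 as circle, square and triangle and the mean ± SD beside them. Cacna2d2 stood at 1002 to 1365 in the 3 cKO embryos, all above the Ctrl embryos (464.4 to 660.2), while dcKO replicate 2 fell to 266.

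Among the transcription factors, Trp73 had 704.9, 661.1 and 466.4 normalised reads in Ctrl replicates 1 to 3. It had 694.2, 935 and 826.4 in cKO and 566.4, 291.1 and 626.2 in dcKO. Ctrl and cKO overlapped in replicate 1 of each, and dcKO replicate 2 was the lowest of the 9 embryos. The fitted log2 fold change was 0.42 ± 0.31 (SE, n = 3) in cKO, with an edgeR adjusted p of 0.405, and -0.31 ± 0.31 in dcKO, with an edgeR adjusted p of 0.527. Without dcKO replicate 2 the dcKO value was -0.0385.

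Lhx1, a LIM-homeodomain factor of these cells (chr11:84518284-84525535), had 157.9, 146.1 and 109.3 normalised reads in Ctrl, 147.4, 284.9 and 154.5 in cKO, and 227.5, 125.5 and 197.5 in dcKO. One cKO embryo, replicate 2, stood apart from the other cKO embryos, which lay within the Ctrl range. Its paralogue Lhx5 (chr5:120431699-120441223) was counted on 18 to 96 reads per embryo. It had 26.32, 30.62 and 18.21 normalised reads in Ctrl, 47.1, 78.27 and 65.6 in cKO, and 36.62, 14.34 and 111.5 in dcKO. All cKO embryos lay above Ctrl, at 1.35 ± 0.65 on the log2 scale (edgeR adjusted p = 0.212), whereas dcKO held both the highest and the lowest of the 9 values. On the opposite strand, Gm27199 overlaps exons of Lhx5 and had 0 to 34 reads per embryo, the most in dcKO replicate 1. Whether the strand was used in counting is not given in the sources used here.

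Ebf2 and Ebf3 are helix-loop-helix factors of the early B-cell factor family, and Ebf2 had the smallest cKO value of the 8 genes (0.24 ± 0.27 on the log2 scale). Ebf2 (chr14:67233292-67430918) had 930.3, 857.3 and 1126 normalised reads in Ctrl, 1087, 1204 and 1162 in cKO, and 1332, 1476 and 695.9 in dcKO. Its cKO embryos were close together (CV 5.14%) and overlapped Ctrl, and its dcKO embryos spanned a wider range than both (CV 35.5%). Ebf3 (chr7:137193673-137314445) had 519.5, 413.3 and 429 in Ctrl, 589.8, 708.6 and 590.4 in cKO, and 616.3, 596.4 and 343.9 in dcKO. Every cKO embryo lay above Ctrl, at 0.47 ± 0.27 on the log2 scale (edgeR adjusted p = 0.279). In both genes dcKO replicate 3 was the lowest of the 9 embryos, while for Lhx5 it was the highest.

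Calb2, which encodes the calcium-binding protein calretinin (chr8:110137502-110168210), had 207.1, 176.7 and 216.5 normalised reads in Ctrl, 371.7, 422.6 and 208.4 in cKO, and 188.6, 149.1 and 360.1 in dcKO. Replicates 1 and 2 of cKO and replicate 3 of dcKO stood above all others. Ndnf, which encodes a secreted neurotrophic factor (chr6:65671590-65712326), was counted on 36 to 191 reads per embryo. It had 44.63, 68.19 and 36.42 in Ctrl, 151.5, 179.5 and 67.72 in cKO, and 148.8, 67.39 and 85.97 in dcKO. In the main fit, which did not correct for GC content, its cKO fold change was the highest of the 8, at 1.42 ± 0.48 on the log2 scale. The adjusted p was 0.098 with edgeR and 0.0357 with DESeq2, and cKO replicate 3 lay within the Ctrl range.

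Cacna2d2, an auxiliary α2δ subunit of voltage-gated calcium channels (chr9:107399612-107529343), had 660.2, 594.3 and 464.4 normalised reads in Ctrl, 1365, 1331 and 1002 in cKO, and 896, 266 and 1094 in dcKO. Its cKO embryos were all above Ctrl, at 1.10 ± 0.43 on the log2 scale (edgeR adjusted p = 0.133). In dcKO 2 embryos lay above Ctrl and replicate 2 lay below. The dcKO log2 fold change was 0.39, and it moved to 0.79 without replicate 2 and to 0.0193 without replicate 3.

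Under some other settings members were called in cKO, together with many other genes. Fitting the Ctrl and cKO embryos alone called Lhx5, Ndnf and Cacna2d2 (edgeR adjusted p = 0.0108, 0.015 and 0.00051), beside 13.1% of all genes tested. Limma voom with quality weights called the same 3, beside 13.7%. Without dcKO replicate 3 these 3 were also called, beside 10.7% of all genes, and without dcKO replicate 2 Cacna2d2 was, beside 8.45%.

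In dcKO cortices 7 of 8 genes were positive against Ctrl, beside 56.9% of all tested genes, and the median was 0.329, beside 0.111. edgeR called 0 of 8, and 0% of all genes. No member passed an unadjusted p-value of 0.05, beside 29.2% of all tested genes, and DESeq2 called 0 members higher, beside 4.67%. In 0 members were the 3 dcKO embryos all above or all below Ctrl, beside 15.6% and 11.2% of all genes. Without dcKO replicate 2, all remaining dcKO embryos lay above Ctrl in 4 members (Lhx1, Lhx5, Ndnf and Cacna2d2), beside 25.1% of all genes, and the members' median was 0.534, beside 0.0336, with 7 of 8 positive. Without dcKO replicate 3 the median was 0.193, beside 0.112, with 6 of 8 positive, and the members without overlap were Ebf2 and Ebf3, both higher, beside 32.2% of all genes. Lhx5 (1.10 ± 0.65) and Ndnf (1.02 ± 0.47) exceeded 1 on the log2 scale, and their edgeR adjusted p-values were 0.283 and 0.183. Lhx5 stood at 1.55 without dcKO replicate 2 and at 0.0289 without dcKO replicate 3. Ndnf ranged from 0.628 to 1.31 with 1 embryo left out. Limma voom with quality weights called 1 of 8, Ndnf (adjusted p = 0.0389), beside 26.8% of all genes.

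Against cKO, dcKO had lower values in 7 of 8 genes, with Ebf2 (0.02) the exception, while 58.6% of all tested genes were higher. The median log2 fold change was -0.338, beside 0.0666 over all genes, and it moved to -0.154 without cKO replicate 2, to -0.557 without cKO replicate 3 and to -0.616 without dcKO replicate 3. edgeR called 0 of 8, beside 0.0146% of all genes, and DESeq2 called 0 lower, beside 0.351%, and 0 higher, beside 0.0293%. Trp73 was the 1 member whose dcKO embryos all lay below cKO, beside 3.63% of all genes, and no member lay above throughout, beside 2.62%. Its log2 fold change was -0.73 ± 0.31 (unadjusted p = 0.0399, edgeR adjusted p = 0.889, exact permutation p = 0.1). Cacna2d2 (-0.71 ± 0.42) and Calb2 (-0.53 ± 0.39) followed in size. Without dcKO replicate 2, Trp73 stood at -0.46, Cacna2d2 at -0.31 and Calb2 at -0.29. Without dcKO replicate 3 they stood at -0.93, -1.09 and -0.985 (edgeR adjusted p = 0.0434, 0.0725 and 0.0524). In that fit 0 members were called, beside 9.01% of all genes.

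With both mutants set against Ctrl, 8 of 8 genes were above 0, beside 54% of all genes, with a median of 0.468 beside 0.0585. edgeR called 0 of 8, beside 6.15% of all genes, and DESeq2 called Ndnf higher (adjusted p = 0.03), beside 5.18%. In 0 members were all 6 mutant embryos above or all below Ctrl, beside 13% and 8.98% of all genes. Ndnf was at 1.22 ± 0.43 on the log2 scale, with an edgeR adjusted p of 0.0797 and an exact permutation p of 0.0714, where 0.0238 is the smallest that 3 against 6 embryos allow. Without dcKO replicate 2, edgeR called 2 members, beside 10.6% of all genes, and the median was 0.576, beside 0.0202. Lhx5 and Cacna2d2 then lay above Ctrl in all remaining mutant embryos, beside 20.2% of all genes. Without dcKO replicate 3, edgeR called 1 member, beside 15.8%, and the median was 0.438, beside 0.0582. Ebf3 was then the member above Ctrl throughout, beside 17.9% of all genes. The cKO and dcKO comparisons share their Ctrl embryos.

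**Figure D3:**
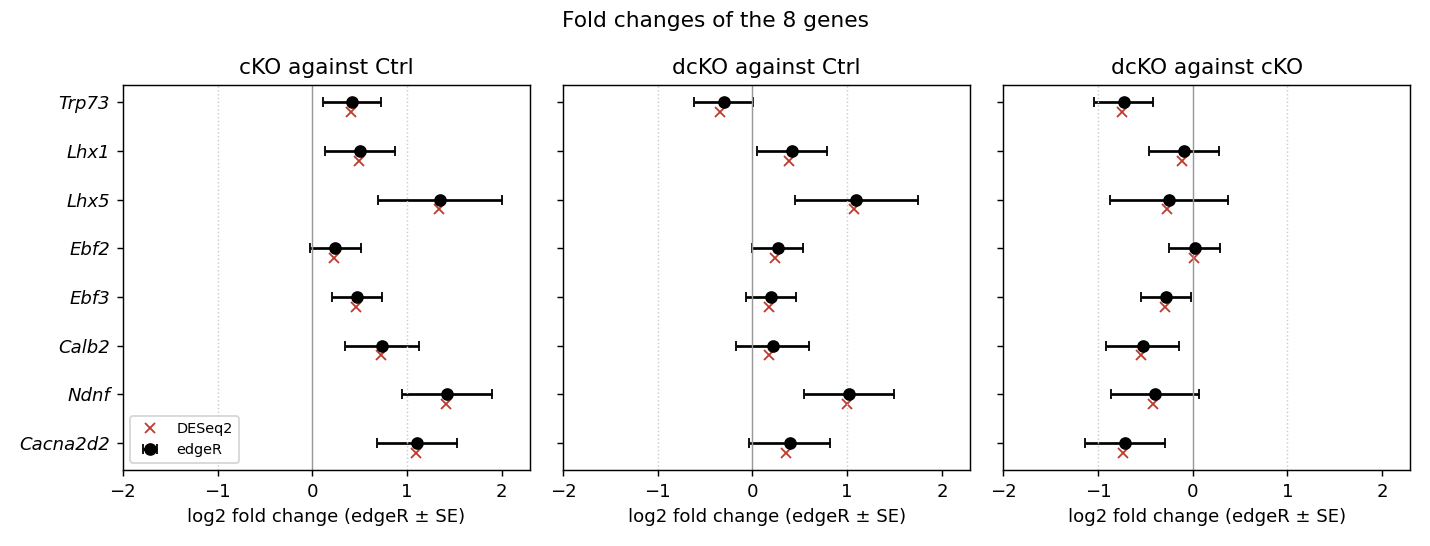
Log2 fold change of each gene in 3 comparisons, as edgeR estimates ± SE (circles) with DESeq2 estimates (crosses), and dotted lines at -1 and 1. All 8 estimates lie above 0 in cKO, from 0.24 (Ebf2) to 1.42 (Ndnf), and Trp73 lies at -0.73 between dcKO and cKO.

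The libraries differed in how counts changed with GC content, and the members followed that trend in some embryos and not in others. Exonic GC content ranged from 41.46% in Ndnf and 45.04% in Ebf2 to 56.98% in Trp73 and 59.28% in Lhx5. In dcKO replicate 2 the trend of all genes at the GC content of Trp73 lay 1.12 below the Ctrl mean on the log2 CPM scale, and Trp73 itself lay 1.05 below. For Cacna2d2 the trend lay 0.942 below and the gene 1.09 below, while for Ebf2 the trend was 0.511 above and the gene 0.613 above. dcKO replicate 1 had a like trend, with -0.99 at the GC content of Trp73, but Trp73 itself lay at -0.0859, Cacna2d2 at 0.66 and Lhx5 at 0.571. In dcKO replicate 3 the trend was opposite, with 0.238, and Trp73 lay at 0.0585. In cKO the trend at that GC content was -0.386, -0.207 and -0.433 in replicates 1 to 3, where Trp73 lay at 0.207, 0.637 and 0.459.

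With the trend removed, the fitted dcKO log2 fold change of Trp73 against Ctrl turned from -0.31 to 0.34. Between dcKO and cKO 0 members were then without overlap, beside 9.37% of all genes. In cKO, Lhx5 (1.90, edgeR adjusted p = 0.0308) and Cacna2d2 (1.36, edgeR adjusted p = 0.0333) then passed the test, beside 4.76% of all genes, and Ebf2 in dcKO turned to -0.115. Ndnf did not pass. Its corrected log2 differences from the Ctrl mean were 1.36, 1.68 and 0.191 in cKO replicates 1 to 3, and 0.538 in Ctrl replicate 2.

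**Figure D4:**
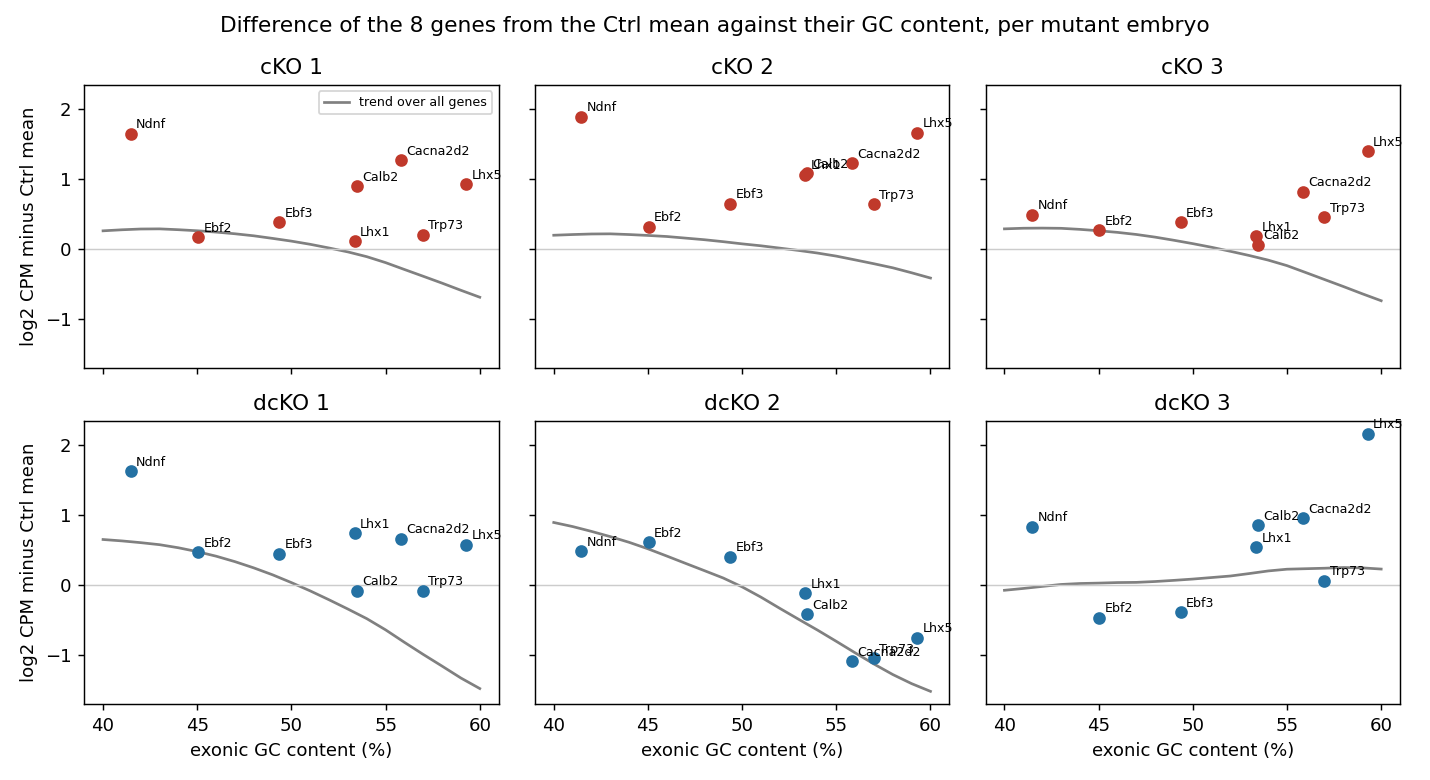
Log2 CPM of each gene minus its Ctrl mean against exonic GC content (%), 1 panel per mutant embryo, with the loess trend of all tested genes as a line. In dcKO replicate 2 the genes fall with the line, from Ebf2 (0.613) to Cacna2d2 (-1.09), with Lhx5 0.689 above it and Ndnf farthest below it (-0.317), and in the cKO embryos Lhx5 and Cacna2d2 lie above 0 where the line lies below.

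Other genes of Cajal-Retzius cells had values of both signs. Of 8 listed, 7 were tested and 0 were called by edgeR in any comparison. Of all genes it called 0.0146% in cKO, 0% in dcKO, 0.0146% between dcKO and cKO, and 6.15% in both mutants. The medians of the 7 were 0.106 in cKO and 0.0262 in dcKO. The untested gene, Car10, which encodes a carbonic anhydrase-related protein, had 0 to 0.204 CPM in Ctrl, 1.09 to 2.94 in cKO and 1.16 to 2.27 in dcKO, higher in all 6 mutant embryos than in Ctrl. Reln, which encodes reelin, had a log2 fold change of 0.02 ± 0.25 in cKO and of -0.76 ± 0.25 in dcKO (edgeR adjusted p = 0.0856, DESeq2 adjusted p = 0.0327). Its CPM was 74.0 to 101.0 in Ctrl, 59.6 to 122.0 in cKO and 49.6 to 57.0 in dcKO, where all 3 embryos lay below Ctrl and below cKO. Ackr3 and Cxcr4, receptors for the chemokine Cxcl12 that holds these cells below the meninges, lay above Ctrl in all cKO embryos (0.46 and 0.42, edgeR adjusted p = 0.256 and 0.306). Ebf1, a paralogue of Ebf2 and Ebf3, lay below Ctrl in all of them (-0.46, edgeR adjusted p = 0.31). Of the other paralogues, Cacna2d3 was higher in cKO, at 1.33 ± 0.32 (edgeR adjusted p = 0.0521, DESeq2 adjusted p = 0.00139), whereas Cacna2d1 was at 0.53 (edgeR adjusted p = 0.225). In dcKO Cacna2d3 was at 0.77 (edgeR adjusted p = 0.139). In both mutants it was at 1.05 (edgeR adjusted p = 0.04), the 1 gene called of 6 tested paralogues, beside 6.15% of all genes.

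Of the 5 genes listed for the cortical hem, 4 were tested and edgeR called 0 in cKO, 0 in dcKO and 1 in both mutants against Ctrl (Lmx1a, 1.87, edgeR adjusted p = 0.0338). The shares of all genes called in these comparisons were 0.0146%, 0% and 6.15%. Lmx1a and Wnt2b, a transcription factor and a Wnt ligand of the hem, stood at 2.04 ± 0.51 and 2.69 ± 0.82 in cKO (edgeR adjusted p = 0.0562 and 0.0802; DESeq2 adjusted p = 0.00185 and 0.00521), and at 1.71 and 2.36 in dcKO. Bmp4 and Msx1 stood at 0.10 and -0.22 in cKO and at -0.95 and -0.087 in dcKO, and none of these passed either test. Wnt3a did not pass the filter. It had 3.83, 2.83 and 0.0721 CPM in Ctrl replicates 1 to 3, 4.34 to 21.5 in cKO and 4.19 to 17.6 in dcKO. Ctrl replicate 3 was the lowest of the 9 embryos for Wnt3a, Wnt2b (0.433) and Lmx1a (2.7), but not for Bmp4 (2.05) or Msx1 (9.37). The summed CPM of the 5 hem genes was 14.6 to 29.0 in Ctrl, 33.2 to 94.5 in cKO and 28.8 to 73.5 in dcKO. For 5 choroid plexus genes, none of which passed the filter, it was 1.05 to 1.59 in Ctrl, 10.8 to 54.7 in cKO and 10.3 to 83.6 in dcKO, and Ttr was at 0 in all Ctrl embryos. Lhx2, a selector of cortical identity against hem, was at -1.19 ± 0.27 in cKO (edgeR adjusted p = 0.0514, DESeq2 adjusted p = 0.00164) and at -0.51 in dcKO. The part of these tissues in the members' values was not tested.

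The summed CPM of the 8 members was 102.1 to 115.8 in Ctrl, 145.3 to 183.3 in cKO and 106.4 to 143.0 in dcKO, with replicate 2 the lowest of its group. Over the same embryos, 6 pan-neuronal genes summed to 1342 to 1757, 934.6 to 1179 and 793.3 to 1646. Meningeal genes, whose tissue adjoins these cells, summed to 779.9 to 858.3, 451.9 to 693.8 and 323.9 to 517.8. Endothelial genes summed to 105.0 to 133.4, 88.1 to 135.6 and 54.4 to 64.7, and microglial genes to 22.4 to 29.1, 22.7 to 47.3 and 11.3 to 19.2. In all 3 cKO embryos the members' sum was above, and the pan-neuronal and meningeal sums were below, every Ctrl embryo. Within the members' sum, Cacna2d2 stood at 16.5 to 23.5 CPM in Ctrl and 35.7 to 48.6 in cKO. Of the 6 pan-neuronal genes, 5 lay below Ctrl in all cKO embryos, beside 28% of all genes. Their log2 fold changes ran from -1.05 (Elavl3) to -0.14 (Map2), and Stmn2 was at 0.03. Tubb3 stood at 481 to 769 CPM in Ctrl and 268 to 407 in cKO. Of the 6 meningeal genes, the collagens Col1a1 (-1.28), Col1a2 (-0.64) and Col3a1 (-0.56; edgeR adjusted p = 0.206, 0.269 and 0.141) had log2 fold changes below 0 in cKO, while Foxc1 (0.32), Lum (0.19) and Dcn (0.00078) did not. Of 7 subpallial genes 1 passed the filter, Lhx6, whose fitted level in cKO was 2.84 times that in Ctrl (edgeR adjusted p = 0.0994, DESeq2 adjusted p = 0.052). The sum of the 7 was 1.19 to 1.51 CPM in Ctrl, 2.26 to 4.54 in cKO and 1.78 to 6.67 in dcKO. The highest sum was that of dcKO replicate 2, which stood apart with Gad2 at 2.04, Dlx2 at 2.25, Dlx1 at 1.2 and Nkx2-1 at 0.46 CPM, while its Lhx6 (0.69) was below the Ctrl embryos (0.843 to 1.3). The part of these genes in the members' values was not tested. In the order Ctrl, cKO and dcKO, 7 radial glia genes summed to 2713 to 3115, 2669 to 3212 and 2783 to 3097, although single genes differed. In cKO, Hes5 (-1.83, edgeR adjusted p = 0.0694, DESeq2 adjusted p = 0.00543) and Nes (-0.68, edgeR adjusted p = 0.098, DESeq2 adjusted p = 0.0413) lay below Ctrl in all embryos and Vim (0.45, edgeR adjusted p = 0.208) above. In the same order of groups, 4 genes of intermediate progenitors summed to 385.0 to 484.9, 351.8 to 430.8 and 331.8 to 663.1. Genes of excitatory cortical neurons summed to 482.6 to 618.7, 423.0 to 684.0 and 403.0 to 630.2, and pallial fate regulators, Lhx2 among them, to 1407 to 1961, 1128 to 1298 and 1422 to 1935. Genes of the septum and the pallial-subpallial boundary, the other birthplaces of Cajal-Retzius cells, summed to 90.6 to 129.7, 69.0 to 119.4 and 69.4 to 113.7. Among them Sp8 was below Ctrl in all cKO embryos (-1.53, edgeR adjusted p = 0.109, DESeq2 adjusted p = 0.0284) and in dcKO replicates 1 and 3. Dbx1, which did not pass the filter, was at 0.216 to 0.408 CPM in Ctrl, 1.36 to 2.96 in cKO and 0.916 to 6.62 in dcKO. Diencephalic genes summed to at most 59.0, 63.4 and 77.4, and erythroid genes to 6101 to 8575, 7548 to 11490 and 4138 to 5640.

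**Figure D5:**
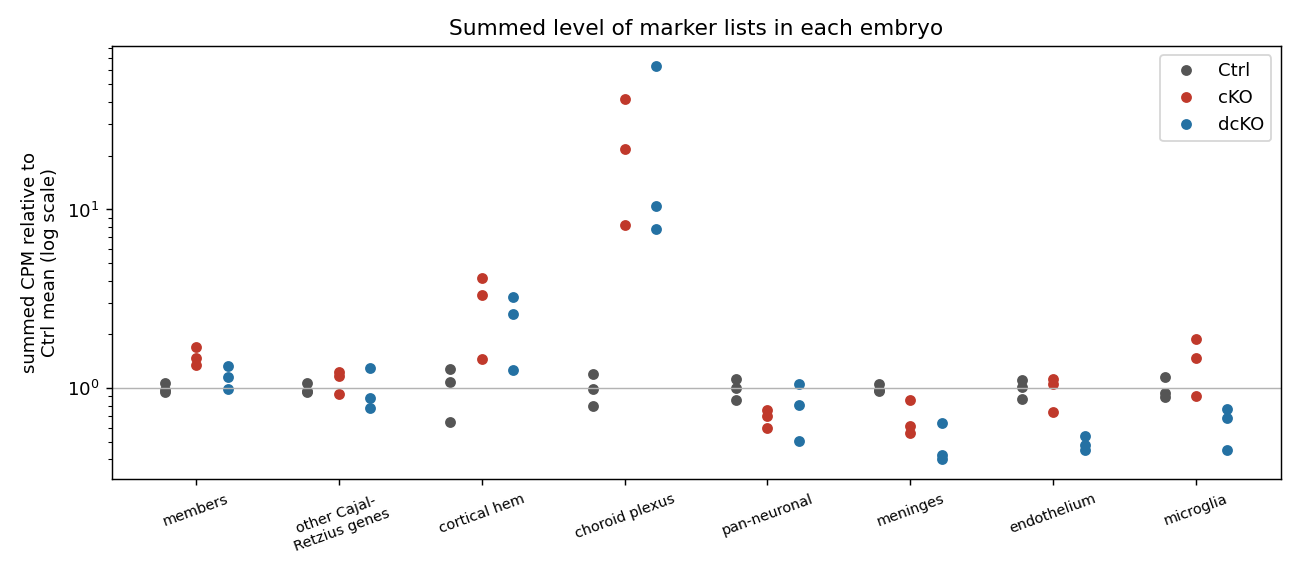
Summed CPM of marker lists relative to the Ctrl mean (log scale), 1 point per embryo. The members' sum lies above Ctrl in all 3 cKO embryos (145.3 to 183.3 against 102.1 to 115.8 CPM), and the choroid plexus sum lies above Ctrl in all 6 mutant embryos.

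The mean of the 8 members' log2 differences from their Ctrl means was 0.702, 1.07 and 0.509 in cKO replicates 1 to 3, with 8 of 8 members above the Ctrl mean in each. In dcKO replicates 1 to 3 it was 0.542, -0.241 and 0.566, with 6, 3 and 6 members above. The genes nearest to Trp73 in profile over the 9 embryos, by mean absolute difference in log2 CPM from the Ctrl mean, were Sulf2 (0.129), Fam43a (0.148) and Inpp5e (0.156). Those nearest to the members' mean profile were Cpped1 (0.112), Mppe1 (0.117) and Tbc1d5 (0.118).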

How the data were processed

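RNA was sequenced from the cortices of 9 single E12.5 embryos, 3 per genotype (Ctrl, cKO, dcKO). Per the labels and the methods, stranded mRNA libraries were made, and reads were trimmed with Cutadapt, mapped on mm39 by STAR and assigned to genes by featureCounts. Versions, annotation release and strand setting are not given in the sources used here. The values the authors deposited are raw counts per gene, with no normalization or filter, and were tested as deposited. Groups and replicate numbers came from the labels. Each library is a separate embryo.

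Counts were fitted in R 4.3.3 with edgeR 4.0.16 (TMM factors, quasi-likelihood test, 1 model of all 9 embryos, no covariates) on 13680 genes, each above 10 reads in all 9 embryos, with Benjamini-Hochberg adjustment over all of them. The SE is the log2 fold change divided by the square root of F. DESeq2 1.42.0 and limma 3.58.1 were alternatives. Log2 CPM used a prior count of 0.5. Gene models, exon lengths and GC content came from GENCODE M21 on GRCm38 (52029 of 57010 identifiers matched), and coordinates are of that build. The GC trend was a loess fit (span 0.3). The procedure was tested on simulated data. The 8 genes and all lists were chosen with earlier results of these data known. Named genes are the 8, genes of the lists, and the 3 nearest in profile to Trp73 and to the members' mean. Same-numbered embryos of different genotypes did not deviate together (9 pairs, r from -0.537 to 0.126). Within genotypes, replicates differed by more than sampling noise (mean chi-square per gene of 15.6 or more). Figures were drawn with matplotlib 3.10.9 in Python 3.11.15, with pandas 2.3.3 and NumPy 2.4.6.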

Additional observations from a re-analysis of the deposited data

How the results depend on the processing

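Lhx5 (18 to 96 reads per embryo) and Ndnf (36 to 191) were counted on the fewest reads of the members. Among single values, the replicate block turned only Ebf2 in dcKO against cKO (-0.00359). It called 0 members, as the main fit did, so no member call was lost. Of all genes it called 0% in every comparison, where the main fit called 6.15% in both mutants. As same-numbered embryos did not pair, the calls lost among all genes are no sign of weaker effects. With the block and the GC correction together, Trp73 (0.301) and Ebf2 (-0.129) in dcKO against Ctrl, Lhx1 (0.102) and Ebf2 (-0.132) in dcKO against cKO, and Ebf2 in both mutants (-0.0624) turned, and 1 member was called in both mutants (2.57% of all genes). GC correction alone turned Trp73 (0.339) and Ebf2 (-0.115) in dcKO against Ctrl, Lhx1 (0.101) and Ebf2 (-0.126) in dcKO against cKO and Ebf2 in both mutants (-0.0526). It called 2 members in cKO and 2 in both mutants (4.76% and 4.89% of all genes), and members without overlap became 4 in cKO (Trp73 joining), 2 in dcKO, 0 between dcKO and cKO, and 1 in both mutants (57.4%, 25.4%, 9.37% and 19.4%). Collection number is the name used here for the digits in the label code of each embryo, and the labels do not use it. Under a block for that number, in dcKO against Ctrl, Trp73 (0.425), Ebf2 (-0.694) and Ebf3 (-0.319) turned. Against cKO, Trp73 (0.0596), Lhx1 (0.378), Lhx5 (1.27), Ebf2 (-1.10), Calb2 (0.0881), Ndnf (0.220) and Cacna2d2 (0.352) did. Ebf2 in both mutants (-0.145) turned too. That block called 1, 2, 1 and 3 members in cKO, dcKO, dcKO against cKO and both mutants (14.5%, 11.9%, 11.6% and 9.41% of all genes). Because dcKO replicates 1 and 2 and cKO replicate 1 are each alone in their collection number, its dcKO values rest on 1 dcKO embryo, replicate 3, through Ctrl replicate 3, and are no check of the 3-embryo results, and what the number stands for is not stated. Upper-quartile factors turned Ebf2 in dcKO against cKO (-0.0786) and left 8 members without overlap in cKO (57.7% of all genes, 35.5% higher). DESeq2 called 1 member in cKO and 1 in both mutants (8.82% and 9.66% of all genes). Limma voom called 3 in cKO, 1 in dcKO and 1 in both mutants (13.7%, 26.8% and 19.8%), and turned Calb2 in dcKO against Ctrl (-0.00332) and Lhx1 (0.322) and Ndnf (0.0800) in dcKO against cKO. Without a filter Ebf2 in dcKO against cKO (-0.0199) and Trp73 in both mutants (-0.0124) turned, and with filterByExpr the same pair did (-0.00680 and -0.00635). The fit of only the embryos compared called 3 in cKO (13.1%). RLE factors changed no direction or call. The cause of these changes was not tested.

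Leaving out 1 embryo at a time, the members called numbered 0 to 3 in cKO, beside 0% to 10.7% of all genes. In both mutants they numbered 0 to 2, beside 0% to 15.8%. They stayed at 0 in dcKO against Ctrl, beside 0% to 23.6% of all genes, and in dcKO against cKO, beside 0% to 9.01%. The highest share of each comparison was that without dcKO replicate 3. Members without overlap numbered 3 to 5 in cKO, 0 to 4 in dcKO, 1 to 5 between dcKO and cKO, and 0 to 2 in both mutants; with fewer embryos all genes overlap less often, and the shares of all genes were 57.2% (no embryo left out) to 66.9%, 26.8% to 62.8%, 6.24% to 52.2% and 22% to 35.7%. Values that turned were Calb2 in dcKO against Ctrl (-0.247 to 0.445), Ebf2 (-0.180 to 0.287), Lhx1 (-0.280 to 0.280) and Lhx5 (-1.32 to 0.204) in dcKO against cKO, and Trp73 in both mutants (-0.104 to 0.190). Without dcKO replicate 2, members without overlap in dcKO numbered 4 (45.4% of all genes), and without dcKO replicate 3 those between dcKO and cKO numbered 5 (52.2%).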
